A study of Mus musculus with 8 samples.

Results

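The genes described here encode the NF-κB transcription factor subunits (Nfkb1, Nfkb2, Rel, Rela and Relb), the IκB kinase complex (IKK: Chuk, Ikbkb and Ikbkg) and the inhibitors Nfkbib and Nfkbie. They were taken by symbol from the gene tables, where all 10 were found among 23337 gene symbols. Naive T cells, sorted on CD62L and low CD44 from mLNs and spleens, came from mice 4 weeks old. The mice were WT or carried CD4-cre and a conditional Trappc1 knockout (KO), and CD4 and CD8 T cells were sequenced separately, giving 2 libraries for each genotype in each lineage, 4 groups in all. CD4-cre is switched on in developing thymocytes, so it acts in both lineages. The labels do not say whether WT mice carried the Cre or whether replicates were separate mice, so the p-values below reflect library-to-library spread that could be technical.

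NF-κB subunits work as dimers that are held in the cytoplasm by IκB proteins. In the canonical route, antigen receptor or cytokine signals activate IKK, which phosphorylates IκB proteins for degradation and frees dimers that contain Rela or Rel. In the non-canonical route, the kinase encoded by Map3k14 (NIK) acts through Chuk on p100, the product of Nfkb2, which is processed to p52 and pairs with Relb. In T cells the pathway is known for its part in survival, maturation and activation, and several of its own genes, among them Nfkb2 and Nfkbia, are known targets of NF-κB. These are RNA data, and they carry no measurement of phosphorylation, processing or location of the proteins.

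The promoters of some of these genes carry the site that NF-κB dimers bind, and they are shown because NF-κB genes are among the known targets of NF-κB. RefSeq windows on GRCm38.p6, running from 250 bases before to 50 after a start, were matched for 7 of the 10 genes, and none was matched for Nfkb1, Relb and Ikbkb. A window was searched on both strands for the κB consensus. At least 1 window held a match for 3 of the 7 genes, Nfkb2, Rel and Nfkbie, beside 8.46% of all 32851 windows and 9.55% of 27025 symbols. Each line gives the 120 bases before the start, 5′ to 3′ on the gene's strand, with matches in capitals where they fall in those bases. Nfkbia, the gene of IκBα and not among the 10, is added as the textbook case, and Rela as a subunit gene without a match.
Nfkb2, chr19:46304617-46304736 (+): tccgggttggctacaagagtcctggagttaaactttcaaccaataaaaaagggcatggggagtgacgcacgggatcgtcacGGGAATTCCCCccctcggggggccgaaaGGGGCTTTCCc
Rel, chr11:23770970-23771089 (-): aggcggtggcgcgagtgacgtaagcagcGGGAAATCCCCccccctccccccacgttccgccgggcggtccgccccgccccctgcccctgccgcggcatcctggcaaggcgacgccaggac
Nfkbie, chr17:45555580-45555699 (+): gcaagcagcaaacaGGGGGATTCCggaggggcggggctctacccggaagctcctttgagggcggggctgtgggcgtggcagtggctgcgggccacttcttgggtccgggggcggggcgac
Nfkbia, chr12:55492648-55492767 (-): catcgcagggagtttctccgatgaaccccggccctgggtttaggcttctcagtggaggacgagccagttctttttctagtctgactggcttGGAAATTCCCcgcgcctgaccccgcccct
Rela, chr19:5637421-5637540 (+): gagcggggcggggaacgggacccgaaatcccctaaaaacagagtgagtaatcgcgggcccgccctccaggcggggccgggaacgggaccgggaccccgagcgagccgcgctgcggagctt
The capitals of Nfkb2 begin 39 and 11 bases before its start, and those of Rel, Nfkbie and Nfkbia begin 92, 106 and 29 bases before theirs. Further windows of Nfkb2, not shown, also held matches. Among target genes described below, the window of Icam1 held 0 matches and a window of Tnfaip3 held matches at 2 places, with both strands merged. A match describes the letters only, and binding was not measured.

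The libraries held between 3.03 and 4.01 gigabases of aligned sequence, estimated from the deposited coverage and FPKM columns. Levels below are TPM, a length-corrected share of the transcripts of a library, so levels of different genes can be compared within it. Trappc1 was listed at 78.7 and 55.0 TPM in CD4 WT and 30.5 and 32.8 TPM in CD4 KO. In CD8 cells it was listed at 81.2 and 40.3 TPM in WT and 56.9 and 45.6 TPM in KO. Replicate 2 of the libraries labelled CD8 WT was thus under both CD8 KO values, and both CD8 KO values lay above both CD4 KO values. The log2 difference of KO against WT was -1.03 ± 0.40 in CD4 cells (limma adjusted p = 0.235). In CD8 cells it was -0.16 ± 0.40 (limma adjusted p = 0.869), so the knockout is not evident in the Trappc1 RNA of the CD8 libraries. The sum over 5 CD4 lineage genes was 768 to 1065 TPM in CD4 libraries and 25.0 to 40.6 TPM in CD8 libraries, and that over 5 CD8 lineage genes was 218 to 259 TPM in CD4 and 1150 to 4321 TPM in CD8 libraries. CD8 WT replicate 2 also differed from the rest in markers of other cells. Its B cell markers (15 genes) stood at 26252 TPM, its myeloid markers (17 genes) at 30080 TPM and its erythroid markers (10 genes) at 92216 TPM. These sums were 2075, 697 and 2217 TPM in CD8 WT replicate 1. In CD4 cells the B cell markers summed to 12067 and 16004 TPM in WT and 6816 and 7386 TPM in KO, and the myeloid markers to 105 and 310 TPM in WT and 1407 and 2305 TPM in KO. CD8 results are therefore also given without CD8 WT replicate 2 for many of the genes. Where no such value is given, the result may still depend on that library. The part of the other cell types in the results was not tested.

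Nfkb1 was lower and Nfkb2 was higher in KO than in WT libraries, in both CD4 and CD8 cells. These genes encode the precursors p105 and p100, from which the DNA-binding subunits p50 and p52 are made. Values in pairs are replicates 1 and 2 in that order. Nfkb1 (chr3:135584655-135691547, minus strand, mm10) measured 57.7 and 38.1 TPM in CD4 WT and 16.0 and 20.4 TPM in CD4 KO. Its CD8 levels were 49.2 and 90.6 TPM in WT and 15.7 and 29.5 TPM in KO. All 4 KO libraries lay below all 4 WT libraries, as for 7.69% of the 11786 tested genes. The log2 difference, KO minus WT on the log2(TPM + 1) scale, was -1.33 ± 0.46 (SE) in CD4 cells (limma adjusted p = 0.191) and -1.59 ± 0.46 in CD8 cells (limma adjusted p = 0.187). Without CD8 WT replicate 2, which held the highest Nfkb1 value, the CD8 difference was -1.15. Averaged over the lineages, Nfkb1 fell by 1.46 ± 0.32 (limma adjusted p = 0.0402), and 4.12% of all tested genes passed this test. In these bulk samples, fewer cells of a type that express a gene and less RNA per cell cannot be told apart.

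**Figure D1:**
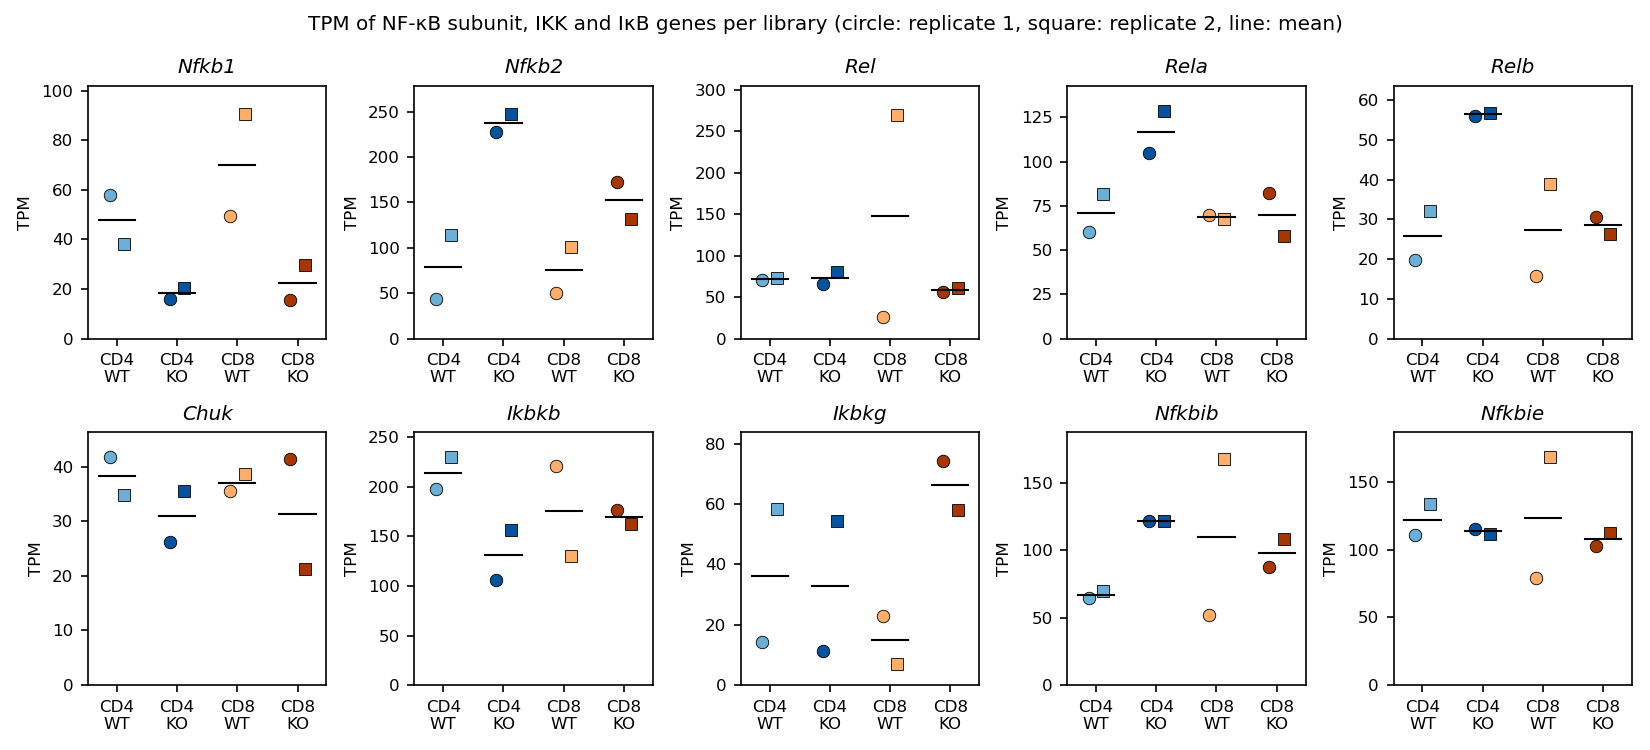
TPM (vertical axis, linear, from 0) of each of the 10 genes in the 8 libraries, by group, with circles for replicate 1, squares for replicate 2 and a line at the mean. The KO points of Nfkb1 (15.7 to 29.5 TPM) lie below all WT points, those of Nfkb2 (131 to 247 TPM) lie above them, and the square of CD8 WT stands far above the others for Rel.

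Nfkb2 (chr19:46304737-46312090, plus strand), whose κB matches begin 39 and 11 bases before its start, measured 43.0 and 113.8 TPM in CD4 WT and 227 and 247 TPM in CD4 KO. The CD8 levels of this gene were 50.3 and 100.5 TPM in WT and 172.9 and 131 TPM in KO, so again the 4 KO libraries did not overlap the 4 WT libraries, being higher as for 5.57% of tested genes. The differences were 1.74 ± 0.48 in CD4 cells (limma adjusted p = 0.126) and 1.07 ± 0.48 in CD8 cells (limma adjusted p = 0.331). The average, 1.41 ± 0.34, missed the threshold by a small margin (limma adjusted p = 0.0506). With 1 library left out it ran from 1.06 (without CD4 WT replicate 1, limma adjusted p = 0.185) to 1.75, and of these 8 fits only that without CD8 WT replicate 2 passed (1.65, limma adjusted p = 0.0259). The CD4 difference was 1.05 without CD4 WT replicate 1, and the CD8 difference was 0.58 without CD8 WT replicate 1 and 1.57 without CD8 WT replicate 2. Nfkb2 overlaps Psd on the opposite strand, which was listed at 2.99 to 11.3 TPM in WT and 18.6 to 34.9 TPM in KO libraries, and reads of the pair cannot be told apart unless the counting used strand, which no label states.

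Nfkb1 is also a long gene, and long genes tended to be lower in KO libraries. It spans 106.9 kb, and the 736 tested genes that span 100 to 200 kb had a median difference of -1.01 in CD4 cells and -0.65 in CD8 cells, with 88.3% and 79.9% of them below 0. Nfkb2 spans 7.4 kb, and genes up to 10 kb (3624) had medians of 0.17 and 0.30. With the trend on span removed, the averaged difference of Nfkb1 was -0.74 (limma adjusted p = 0.287), and its difference was -0.43 in CD4 and -1.06 in CD8 cells. The averaged difference of Nfkb2 was 1.19 under the same correction (limma adjusted p = 0.145). Why longer genes were lower in KO libraries was not tested. The call of Nfkb1 was also lost without each of 6 libraries, all but the CD8 WT pair, with the average between -1.67 and -1.24 (limma adjusted p of 0.1 to 0.203), with no filter on low values (limma adjusted p = 0.109) and with median-of-ratios scaling (-1.40, limma adjusted p = 0.0529).

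**Figure D2:**
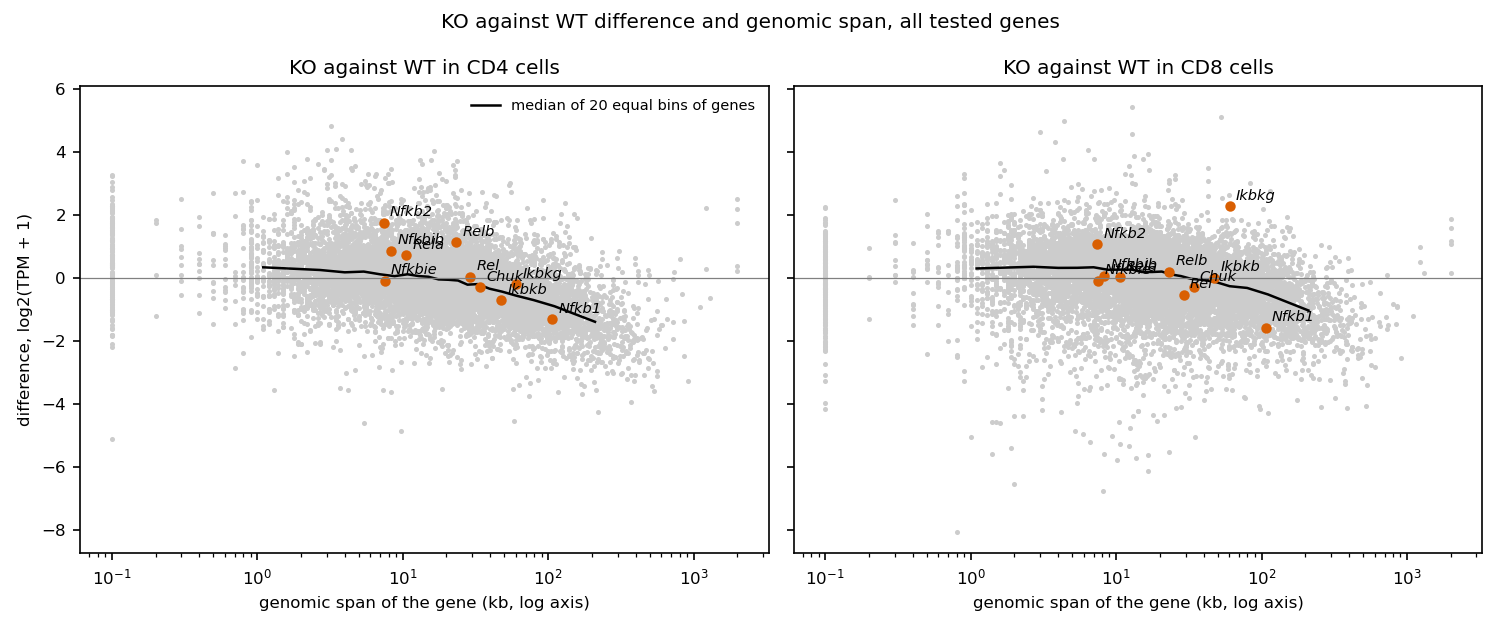
Log2 difference of KO against WT (vertical axis, log2(TPM + 1) scale) against the genomic span of each of 11786 tested genes (horizontal axis, kb, log scale) in CD4 and CD8 cells, with the 10 genes in orange and the medians of 20 bins of genes ordered by span as a line. The median falls with span in both panels, and Nfkb1, the longest of the 10 at 106.9 kb, lies near it in CD4 cells and further below it in CD8 cells.

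Among the subunit genes with a transactivation domain, differences were smaller and did not pass. Rela (chr19:5637490-5648130, plus strand), which encodes p65, measured 60.3 and 81.5 TPM in CD4 WT and 104.6 and 128.6 TPM in CD4 KO, a difference of 0.72 ± 0.33 (limma adjusted p = 0.308). The CD8 levels were 69.6 and 67.4 TPM in WT and 82.0 and 58.0 TPM in KO, and the difference of 0.01 ± 0.33 turned to -0.01 without CD8 WT replicate 2 and to -0.09 with median-of-ratios scaling. The CD4 groups of Rela did not overlap, whereas the CD8 groups did. Relb (chr7:19606222-19629438, minus strand), the usual partner of p52, measured 19.7 and 32.1 TPM in CD4 WT and 56.2 and 56.9 TPM in CD4 KO, a difference of 1.13 ± 0.47 (limma adjusted p = 0.263). CD8 cells had 15.7 and 39.0 TPM in WT and 30.7 and 26.3 TPM in KO, within the WT spread (0.19 ± 0.47, limma adjusted p = 0.870). Without CD8 WT replicate 2 the CD8 difference of Relb was 0.82.

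Rel (chr11:23741729-23770970, minus strand), which encodes c-Rel, the subunit most tied to lymphocytes, overlapped between the CD4 groups, with 70.1 and 72.6 TPM in WT and 65.8 and 80.7 TPM in KO (0.03 ± 0.81, limma adjusted p = 0.992). Its levels in CD8 cells were 26.3 and 269.6 TPM in WT and 55.7 and 60.4 TPM in KO. The KO values lay between the WT replicates, which were further apart than for any other of the 5 subunit genes. The high value is in CD8 WT replicate 2, the library with B cell, myeloid and erythroid markers. The CD8 difference was -0.54 ± 0.81 with it and 1.11 without it, and -2.20 without CD8 WT replicate 1 (limma adjusted p = 0.00476), so the direction for Rel in CD8 cells rests on which WT library is kept.

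The make-up of the subunit pool was described within each library, where scaling between libraries plays no part. Shares of a pool are tied, so a rise of Nfkb2 lowers the share of Nfkb1 even where the level of Nfkb1 holds. The trend on span was not removed from the shares. Nfkb2 made up 17.2%, 33.6%, 23.8% and 17.7% of the summed TPM of the 5 subunit genes in the 4 WT libraries (CD4 WT 1 and 2, CD8 WT 1 and 2). In the KO libraries, in the same order, it made up 48.4%, 46.3%, 48.4% and 43.0%. Nfkb1 made up 11.3% to 23.3% in WT and 3.41% to 9.64% in KO libraries. The means were 23.1% ± 7.7 (SD, n = 4) and 46.5% ± 2.5 for Nfkb2, and 18.4% ± 5.8 and 5.3% ± 2.9 for Nfkb1, in WT and KO libraries respectively. Neither gene's shares overlapped between genotypes. The ratio of Nfkb2 to Nfkb1, chosen after the values were seen, ran from 0.75 to 2.98 in WT and from 4.46 to 14.18 in KO libraries. The share of Rela ran from 19.0% to 24.1% in KO and from 11.9% to 33.0% in WT libraries, with the lowest value in CD8 WT replicate 2, where Rel took 47.6%. The shares are a description and carry no test.

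**Figure D3:**
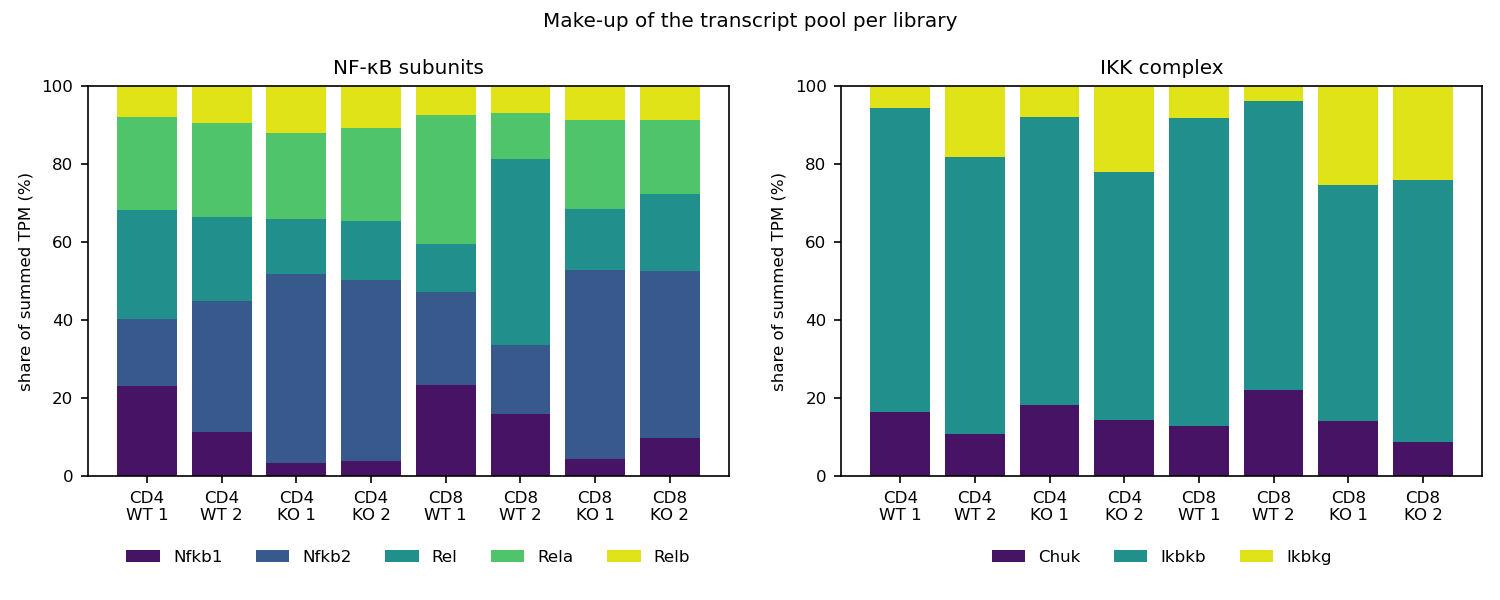
Share of the summed TPM (vertical axis, %) of the 5 subunit genes (left) and the 3 IKK genes (right), with 1 bar per library. The Nfkb2 block fills 43.0% to 48.4% of the left bars of KO libraries and 17.2% to 33.6% of those of WT libraries, and Ikbkb fills most of every right bar.

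The IKK genes did not pass the test in either lineage. Ikbkb (chr8:22659205-22706583, minus strand), the kinase that phosphorylates IκB in the canonical route, was the most abundant of the 10 genes on average, with 60.5% to 79.0% of the IKK pool. It measured 198 and 230 TPM in CD4 WT and 106 and 157 TPM in CD4 KO, without overlap (-0.72 ± 0.34, limma adjusted p = 0.325). The corresponding CD8 levels were 221 and 130 TPM in WT and 177 and 163 TPM in KO, inside the WT spread, and the CD8 difference was -0.38 without CD8 WT replicate 2. With the span trend removed the CD4 difference of Ikbkb, which spans 47.4 kb, was -0.29. Chuk (chr19:44073334-44107477, minus strand), the kinase shared by both routes, stood between 21.3 and 41.8 TPM over all 8 libraries, its groups overlapped in both lineages, and its differences were -0.31 ± 0.41 in CD4 and -0.31 ± 0.41 in CD8 cells.

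Ikbkg (chrX:74393291-74453778, plus strand), the regulatory subunit NEMO, varied most within groups. In CD4 cells it measured 14.2 and 58.4 TPM in WT and 11.3 and 54.3 TPM in KO, so each genotype had 1 low and 1 high library. Among CD8 libraries the levels were 23.0 and 6.95 TPM in WT and 74.2 and 58.2 TPM in KO, without overlap, a difference of 2.27 ± 0.84 (limma adjusted p = 0.256). It was 1.48 without CD8 WT replicate 2 (limma adjusted p = 0.510). Ikbkg overlaps G6pdx on the opposite strand, listed at 49.9 to 107.4 TPM, and unstranded reads of the pair could not be told apart, so the level of Ikbkg is uncertain.

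Of the inhibitor genes, Nfkbib (chr7:28758251-28766524, minus strand), which encodes IκBβ, measured 64.2 and 69.6 TPM in CD4 WT and 121.8 and 121.5 TPM in CD4 KO (0.85 ± 0.48, limma adjusted p = 0.402). Its replicates lay close together in both CD4 groups, and the wide SE comes from the spread pooled over the 4 groups: the CD8 WT libraries measured 51.7 and 167.5 TPM. The CD8 KO libraries of Nfkbib measured 87.8 and 108.1 TPM, and the CD8 difference was 0.06 with and 0.90 without CD8 WT replicate 2. Without that library the averaged difference of Nfkbib was 0.88 (limma adjusted p = 0.0209), against 0.46 (limma adjusted p = 0.457) with it. Nfkbie (chr17:45555716-45563168, plus strand), which encodes IκBε, stood between 111 and 134 TPM in all CD4 libraries and differed by -0.10 ± 0.37 in each lineage. Its CD8 WT values were 78.9 and 168.4 TPM and its CD8 KO values 103.0 and 112.5 TPM, and the CD8 difference was 0.44 without CD8 WT replicate 2.

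**Figure D4:**
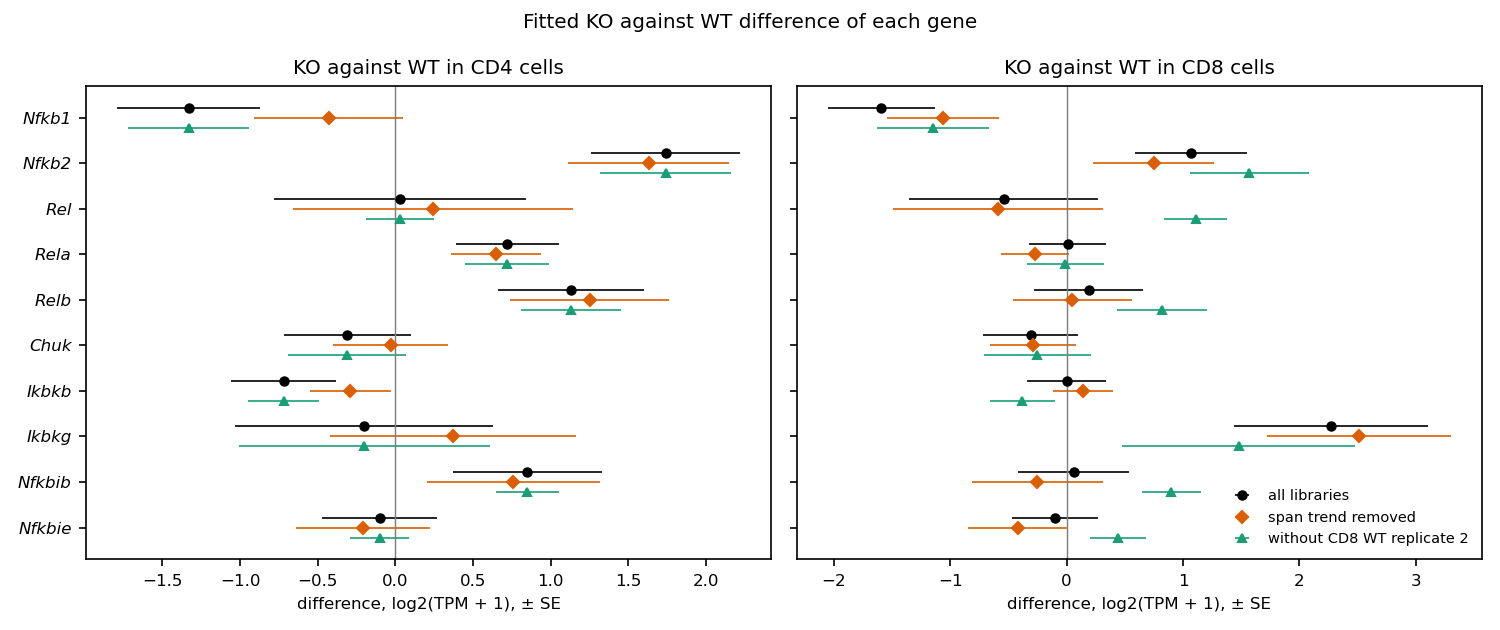
Fitted log2 difference of KO against WT (horizontal axis, log2(TPM + 1) scale; bars are SE, and the panels have different scales) for each of the 10 genes, with all libraries (black), with the span trend removed (orange) and without CD8 WT replicate 2 (green). Nfkb1 moves from -1.33 to -0.43 in CD4 cells when the span trend is removed, and Rel moves from -0.54 to 1.11 in CD8 cells without that library.

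Calls among the 10 are given beside the share of all tested genes, and no test compared the counts. Where few genes pass at all, 0 of 10 says little about these genes. In CD4 cells 0 of 10 passed limma at an adjusted p of 0.05, beside 0.713% of 11786 tested genes, and 3 had an unadjusted p below 0.05 (Nfkb1, Nfkb2 and Relb), beside 16.7% of all genes. The groups did not overlap for 6 of 10, with 4 higher in KO (Nfkb2, Rela, Relb and Nfkbib), beside 21.7%, and 2 lower (Nfkb1 and Ikbkb), beside 36.5%. In CD8 cells 0 of 10 passed, beside 0.297%, and 3 had an unadjusted p below 0.05 (Nfkb1, Nfkb2 and Ikbkg), beside 15.1%. Here Nfkb2 and Ikbkg were higher without overlap, beside 23.0%, and Nfkb1 lower, beside 19.1%. In the average 1 of 10 passed, Nfkb1, beside 4.12%, and non-overlap of 4 against 4 libraries was seen for Nfkb2 (higher, beside 5.57%) and Nfkb1 (lower, beside 7.69%). The average uses the same libraries as the single comparisons and adds no independent data.

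The lineages were compared directly. The difference of the KO effect, CD8 minus CD4, passed for 0 of 10 genes, beside 0.0% of all genes, with 0 of 10 at an unadjusted p below 0.05, beside 6.95%. Its largest value was that of Ikbkg (2.48 ± 1.18, limma adjusted p = 0.701), and those of Nfkb1 (-0.26 ± 0.65) and Nfkb2 (-0.67 ± 0.68) were within their errors, which does not show that the lineages act alike. Between WT lineages 0 of 10 passed, beside 0.195%, and no gene of the 10 separated CD8 from CD4 libraries, beside 34.3% of all genes. Between KO lineages 0 of 10 passed, beside 0.28%, and 1, Rela, had an unadjusted p below 0.05, beside 9.52%. In KO cells Nfkb2, Rel, Rela, Relb and Nfkbib were lower in CD8 than in CD4 libraries without overlap, beside 25.8% of all genes, and Ikbkb and Ikbkg higher, beside 23.6%. For Rela that difference was -0.74 ± 0.33 (limma adjusted p = 0.520).

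Across the 8 libraries, which share 4 groups, some genes ran together. On the log2(TPM + 1) scale Nfkb2 and Relb had a Pearson r of 0.88 (0.92 without CD8 WT replicate 2), Nfkb1 and Nfkb2 one of -0.77 (-0.93), and Rel and Nfkbie one of 0.95 (0.90). Of 11785 other tested genes, the pair most like Nfkb1 was Tbc1d15 (r = 0.995) and Arhgef12 (0.973), and the pair most like Nfkb2 was Brd2 (0.965) and Hyou1 (0.963). For Rel it was Tnfrsf21 (0.989) and 1700017B05Rik (0.980), for Rela Ndrg1 (0.977) and Rdh11 (0.969), and for Relb Hnrnph2 (0.985) and Ppp1r10 (0.967). These are the highest of many values over 8 libraries and are given as a description.

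The signalling genes upstream of IKK gave isolated calls. For this and the following lists, the share of all tested genes with an unadjusted p below 0.05 was 16.7% in CD4 and 15.1% in CD8 cells. The share that passed at an adjusted p of 0.05 was 0.713% in CD4 cells, 0.297% in CD8 cells and 4.12% in the average. The fit pools spread over all 4 groups, so the CD8 WT pair also enters the CD4 tests. With only the compared groups fitted, 243 genes passed in CD4 cells, against 84 in the main fit. In CD8 cells 0 genes then passed, against 35. Of 20 genes of the antigen receptor route 6 lay above 0 and 14 below in CD4 cells (median -0.30, all genes -0.16), 13 above and 7 below in CD8 cells (median 0.09, all genes 0.05), and 0 passed in either (limma, 4 and 1 at an unadjusted p below 0.05). Without CD8 WT replicate 2 the CD8 counts were 8 above and 12 below (median -0.14). Malt1, the protease and scaffold of the complex that links antigen receptors to IKK, measured 29.7 and 24.7 TPM in CD4 WT, 10.5 and 9.51 TPM in CD4 KO, 32.2 and 94.6 TPM in CD8 WT and 19.6 and 12.1 TPM in CD8 KO. All KO libraries lay below all WT libraries. The CD8 difference was -1.78 ± 0.53 with all libraries and -1.02 without CD8 WT replicate 2. In the average Malt1 fell by 1.57 ± 0.37 (limma adjusted p = 0.0496). That call sat at the threshold: it was lost under 6 settings that kept all libraries and without any 1 of the 6 libraries outside CD8 WT, and the average was -1.27 with the span trend removed. Bcl10, an adaptor that binds Malt1, differed by 0.54 ± 0.33 in CD4 and 0.25 ± 0.33 in CD8 cells and did not pass. Traf6, a ubiquitin ligase of this route, differed by 0.67 ± 0.36 in CD4 and 0.71 ± 0.36 in CD8 cells.

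Of the 14 tested genes of the non-canonical route 4 lay above and 10 below 0 in CD4 cells (median -0.28) and 10 above and 4 below in CD8 cells (median 0.16), with 0 passing in either (limma, 2 at an unadjusted p below 0.05 in each); without CD8 WT replicate 2 the CD8 median was 0.08. Birc2, the ubiquitin ligase cIAP1 that keeps NIK low, measured 71.9 and 104.6 TPM in CD4 WT, 181 and 212 TPM in CD4 KO, 88.7 and 78.7 TPM in CD8 WT and 138 and 142 TPM in CD8 KO, and rose in the average by 0.95 ± 0.21 (limma adjusted p = 0.0412). With the span trend removed it was 0.86 and no longer passed, as also without any 1 of the 6 libraries outside CD8 WT (0.82 to 1.09). Map3k14, the gene of NIK itself, differed by -0.29 ± 0.44 in CD4 and 0.19 ± 0.44 in CD8 cells, with overlapping groups in both. Traf2 differed by -0.75 ± 0.32 in CD4 cells, and Birc3, the close relative cIAP2, by -1.15 ± 0.33 in CD8 cells (-0.75 without CD8 WT replicate 2), neither passing.

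Feedback inhibitors and other IκB genes showed no call in the main fit. Of 20, 8 lay above and 12 below 0 in CD4 cells (median -0.29, 5 at an unadjusted p below 0.05). In CD8 cells 9 lay above and 11 below (median -0.12, 1 at an unadjusted p below 0.05), with 0 passing limma in each lineage. The CD8 median was -0.34 without CD8 WT replicate 2. Nfkbia, whose κB match 29 bases before the start is shown above, measured 890 and 884 TPM in CD4 WT and 3347 and 2862 TPM in CD4 KO (1.80 ± 0.41, limma adjusted p = 0.0826). That CD4 difference passed in 3 of 12 alternatives apart from leaving out single libraries (1.59 to 2.02). The CD8 levels of Nfkbia were 814 and 2094 TPM in WT and 1516 and 1652 TPM in KO, between the WT replicates (0.28 ± 0.41, and 0.96 without CD8 WT replicate 2). The summed TPM of Nfkbia, Nfkbib and Nfkbie per summed TPM of the 5 subunit genes ran from 3.21 to 4.47 in WT and from 4.78 to 7.63 in KO libraries. Tnfaip3, the gene of the deubiquitinating inhibitor A20, differed by 0.96 ± 0.46 in CD4 cells and by -0.98 ± 0.46 in CD8 cells, and the latter was -0.15 without CD8 WT replicate 2. Zc3h12a, which encodes an RNase that degrades inflammatory transcripts, had the largest CD4 difference of the list without overlap, 1.95 ± 0.93 (limma adjusted p = 0.328), and Nlrc5 the lowest, -1.44 ± 0.52 (limma adjusted p = 0.205). In CD8 cells those places were taken by Tnip1 (0.64 ± 0.31) and Zfand5 (-1.52 ± 0.57, and -0.82 without CD8 WT replicate 2).

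Of 38 genes often cited as NF-κB targets in lymphocytes, 6 of which are inhibitors or Birc3 already counted above, 27 lay above and 11 below 0 in CD4 cells (median 0.58, all genes -0.16, with 41.7% of all genes above 0). Many of the 38 are short, and short genes tended to lie higher in KO libraries. Tested genes up to 10 kb had medians of 0.17 in CD4 and 0.30 in CD8 cells, with 41.2% and 34.5% below 0. The part of span in the balance of this list was not tested. In CD4 cells 2 passed limma, both higher, beside 0.713% of all genes, and 12 had an unadjusted p below 0.05, beside 16.7%. These CD4 counts depend on the CD8 WT pair. Leaving out either CD8 WT library kept the CD4 median at 0.58 and changed only the spread used by the tests. In CD8 cells 0 passed, beside 0.297%, and 6 had an unadjusted p below 0.05, beside 15.1%. Here 16 lay above and 22 below 0 (median -0.29, all genes 0.05, with 52.4% of all genes above 0). That balance turned with 1 library: without CD8 WT replicate 2, the library with B cell, myeloid and erythroid markers, 25 lay above and 13 below 0 (median 0.28, all genes -0.08) and 1, Gadd45b, passed limma as higher in KO, whereas without CD8 WT replicate 1 the median was -0.65. Icam1, an adhesion molecule, measured 72.0 and 115 TPM in CD4 WT and 469 and 481 TPM in CD4 KO and rose by 2.37 ± 0.30 (limma adjusted p = 0.0290). In CD8 cells Icam1 measured 169 and 162 TPM in WT and 512 and 518 TPM in KO (1.63 ± 0.30, limma adjusted p = 0.0678), and in the average it rose by 2.0 ± 0.21 (limma adjusted p = 0.00327). With 1 library left out the averaged difference of Icam1 ran from 1.83 to 2.17, and the call was not kept in every such fit. Irf1, a transcription factor of interferon responses, measured 182 and 253 TPM in CD4 WT and 641 and 767 TPM in CD4 KO and rose by 1.70 ± 0.31 (limma adjusted p = 0.0438). Its CD8 libraries measured 289 and 194 TPM in WT and 350 and 343 TPM in KO. In the average Irf1 rose by 1.12 ± 0.22 (limma adjusted p = 0.0270), and by 0.98 to 1.27 with 1 library left out. That averaged call was lost in 1 of 11 other alternatives and could also be lost with 1 library left out. Both CD4 calls were lost with no filter on low values and without any 1 of the 6 libraries outside CD8 WT, with Icam1 between 2.04 and 2.70 and Irf1 between 1.46 and 1.94. Stat5a, which transmits cytokine signals, rose in the average by 1.37 ± 0.25 (limma adjusted p = 0.0218), a call that was lost in the same ways (1.24 to 1.51). It measured 41.2 and 48.3 TPM in CD4 WT and 148 and 165 TPM in CD4 KO. The CD8 levels of Stat5a were 23.4 and 35.3 TPM in WT and 68.5 and 47.0 TPM in KO. Taken over both lineages, its KO and WT libraries overlapped. Ptgs2 had the lowest CD8 difference without overlap (-3.52 ± 1.32), set by 62.7 TPM in CD8 WT replicate 2 against at most 1.90 TPM in the other libraries.

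**Figure D5:**
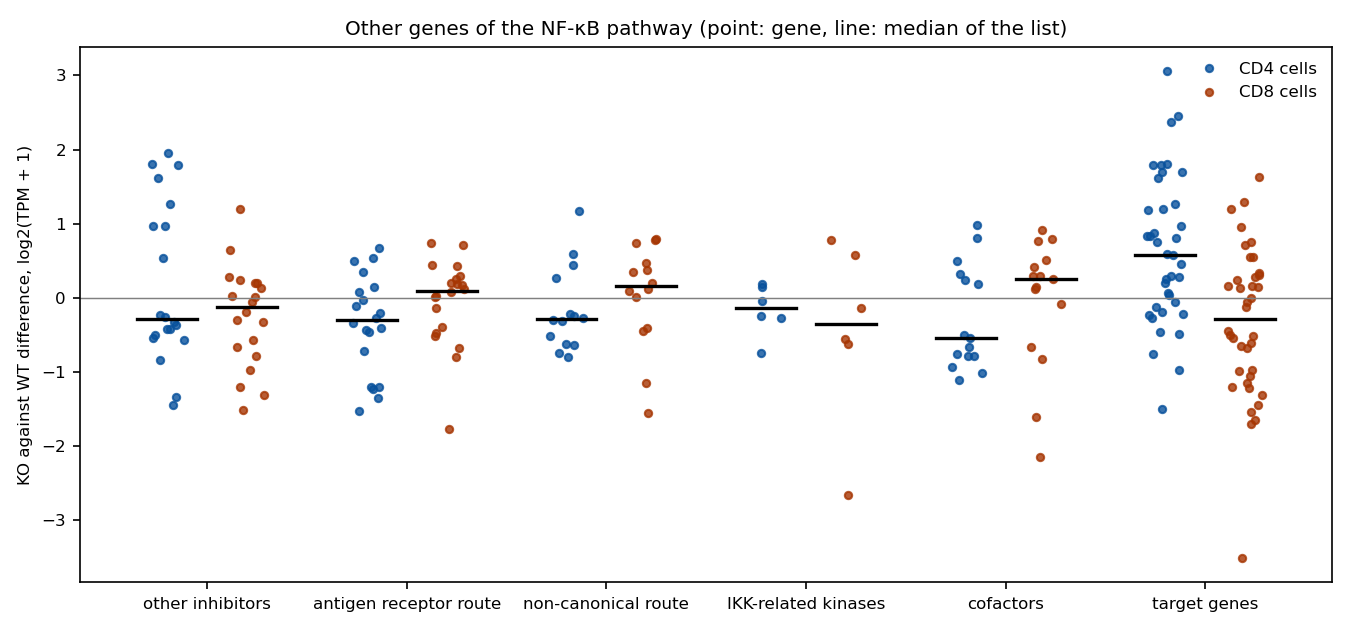
Log2 difference of KO against WT (vertical axis, log2(TPM + 1) scale) of each tested gene of 6 lists of the pathway, in CD4 (blue) and CD8 cells (orange-brown), with a line at each list's median. The target genes have medians of 0.58 in CD4 and -0.29 in CD8 cells, the latter turning to 0.28 without CD8 WT replicate 2, and the other lists lie between -0.55 and 0.25 with all libraries.

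The remaining lists held no call in the main fit. Of 6 tested IKK-related kinases and adaptors 2 lay above and 4 below 0 in each lineage (medians -0.14 and -0.35), with 0 and 1 at an unadjusted p below 0.05. The kinase gene Tbk1 differed by 0.18 ± 0.29 in CD4 cells and Ikbke by 0.77 ± 0.42 in CD8 cells (0.08 without CD8 WT replicate 2). Optn, a ubiquitin-binding adaptor, had the lowest difference without overlap in both, -0.75 ± 0.91 in CD4 and -2.66 ± 0.91 in CD8 cells, and the latter was -1.04 without CD8 WT replicate 2. Of 15 cofactors of NF-κB transcription 6 lay above and 9 below 0 in CD4 cells (median -0.55) and 10 above and 5 below in CD8 cells (median 0.25), with 4 and 3 at an unadjusted p below 0.05 and 0 passing limma. Without CD8 WT replicate 2 the CD8 median of the cofactors was 0.09 and 1 of them, Peli1, passed as lower in KO. Cdk9, a kinase of transcription elongation, differed by 0.97 ± 0.48 and Mtdh by -1.12 ± 0.31 in CD4 cells. In CD8 cells Hdac1, a histone deacetylase, differed by 0.91 ± 0.32 (0.51 without CD8 WT replicate 2) and Rps6ka5 by -2.15 ± 0.55. Mtdh spans 59.7 kb, and genes of 50 to 100 kb had a CD4 median of -0.64. Rps6ka5 spans 175.3 kb, and genes of 100 to 200 kb had a CD8 median of -0.65. Gadd45b and Peli1 were named after their values were seen. Tnfrsf18, a receptor of the non-canonical list, differed by 0.79 ± 0.39 in CD8 cells and by 0.13 without CD8 WT replicate 2.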

How the data were processed

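RNA-seq gene tables of 8 libraries were used. Reads were aligned with HISAT to mm10, per the submitters' processing notes; no version or counting program is named there. The deposited tables give TPM and FPKM per gene, per the file headers, and TPM was scaled by the authors to a common total. The deposited coverage signal served only to estimate depth, as coverage divided by FPKM. TPM keeps no counts, so no counting interval could be given.

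TPM was summed per symbol. The 11786 genes whose mean reached 1 TPM, all 10 described genes among them, were fitted on log2(TPM + 1) in R 4.3.3 by limma 3.58.1, with files read by data.table version 1.17.8. The fit used all 8 libraries, a mean for each of 4 groups and eBayes with a trend on intensity (4 residual and 5.68 prior degrees of freedom). P-values were adjusted over all tested genes (Benjamini-Hochberg), with calls at 0.05. The log2(TPM + 1) scale understates changes of low genes. The steps were tested on simulated data. The span trend was removed with a lowess fit (span fraction 0.3) of each library's deviations from the gene means on log genomic span, with positions from the deposited tables. RefSeq windows were used on GRCm38.p6, whose coordinates are those of mm10.

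The genes and the pathway and marker lists were chosen with earlier results of these data known. Named beyond the 10 genes are, per list and KO comparison, up to 4 called genes or otherwise the largest rise and fall without overlap at a mean of at least 5 TPM, as well as called list genes in the average, Nfkbia, Tnfaip3, Bcl10, Malt1, Map3k14, Trappc1 and, per subunit gene, the pair with the highest Pearson r. A further gene that this rule names is not reported here. The alternatives were other pseudocounts, filters, scalings and weights, FPKM, only the compared groups, a replicate block and leaving out each library.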

Additional observations from a re-analysis of the deposited data

How the results depend on the processing

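Over 590 alternative values of the 10 genes in the KO comparisons, 534 kept direction and side of the threshold, 13 passed only in the alternative, 10 lost the call and 33 turned direction. Of the 30 results behind these values only 1, Nfkb1 in the average, was called in the main fit. All 10 losses are of that call, and for the rest keeping the side means staying uncalled. For the other named genes these counts were 720, 31, 52 and 12 of 815. The cause of each change was not tested unless named. The same-numbered replicates did not deviate together (r of -0.036 to 0.094), and the labels do not pair them.

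Genes called in CD4 cells (84; 22 higher, 62 lower) numbered 22 with the span trend removed, 1260 with library weights, 141 with median-of-ratios scaling (62 higher, 79 lower), 0 with no filter, 243 with only the compared groups, 29 with the replicate block, 140 when rescaled without marker genes and 327 without CD8 WT replicate 2 and with the span trend removed, an alternative chosen after seeing the data. In CD8 cells (35) they numbered 0 with weights, no filter and only the compared groups. In the average (485; 160 higher, 325 lower) they numbered 148 with the span trend removed (89 higher, 59 lower), 759 with median-of-ratios (342 higher, 417 lower), 26 with no filter and 738 when rescaled. CD8 against CD4 gave 23 in WT (15 with weights, 1 with no filter, 0 with only the compared groups, 85 with the added alternative) and 33 in KO (353 with weights, 50 with median-of-ratios, 0 with no filter, 141 with only the compared groups, 235 with the added alternative). The difference of effects gave 0, with 819 at an unadjusted p below 0.05, and 2 with the added alternative. Leaving out 1 library gave 0 to 768 in CD4, 0 to 1842 in CD8, 0 to 1798 in the average, 0 to 1148 for the difference, 0 to 1629 between WT and 1 to 153 between KO lineages.

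Of the 10 genes, 2 were called in CD4 cells with weights (Nfkb1 and Nfkb2). In the average it was 1, but 2 with FPKM, the 5 TPM filter or the replicate block (Nfkb1 and Nfkb2), 0 with the span trend removed, median-of-ratios or no filter, and 3 with the added alternative (Nfkb2, Relb and Nfkbib). Without 1 library it was 0 to 3 in the average and 0 to 2 in CD8 cells, for the difference and between WT lineages. Shares of the subunit pool were the same from FPKM.

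Median-of-ratios scaling moved the median of all genes in CD4 cells from -0.16 to 0.03. These differences turned: in CD4 cells Ikbkg (0.01 with median-of-ratios, 0.37 with the span trend removed, 0.36 added), Nfkbie (0.12 with median-of-ratios) and Map3k14 (0.15 span, 0.14 added); in CD8 cells Rela (-0.09 median-of-ratios, -0.01 FPKM, -0.27 span, -0.10 rescaled, -0.08 added), Nfkbib (-0.04 median-of-ratios, -0.25 span, -0.05 rescaled), Ikbkb (0.14 span), Nfkbia (-0.09 span), Bcl10 (-0.04 span), Tnfrsf18 (-0.05 added), Rel (1.22 added) and Nfkbie (0.34 added); in the average Rel (0.72 added) and Nfkbie (0.06 added). Leaving out 1 library turned these, given as ranges: in CD4 cells Rel (-0.11 to 0.18), Ikbkg (-1.28 to 0.88), Nfkbie (-0.23 to 0.03) and Map3k14 (-0.70 to 0.11); in CD8 cells Rel (-2.20 to 1.11), Rela (-0.24 to 0.26), Relb (-0.44 to 0.82), Chuk (-0.77 to 0.15), Ikbkb (-0.38 to 0.38), Nfkbib (-0.78 to 0.90), Nfkbie (-0.64 to 0.44), Nfkbia (-0.40 to 0.96), Bcl10 (-0.16 to 0.65), Map3k14 (-0.06 to 0.44) and Trappc1 (-0.66 to 0.33); in the average Rel (-1.08 to 0.57) and Nfkbie (-0.37 to 0.17). Where a group is left with 1 library, it is assumed to vary like the other groups.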
